A study of Saccharomyces cerevisiae with 22 samples.

Results

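The cytochrome bc1 complex, or respiratory complex III, is the middle enzyme of the mitochondrial electron transport chain. It takes electrons from ubiquinol, passes them through cytochrome b, the Rieske iron-sulphur protein and cytochrome c1 to soluble cytochrome c, and moves protons across the inner membrane as it does so. Yeast makes cytochrome b from a mitochondrial gene, whereas all other subunits come from nuclear genes whose products are imported. The transcripts of these nuclear genes were described here across 5 levels of oxygen. The genes were chosen by name, as the known subunits, and each of the 9 had exactly 1 probe set of its own among the 5716 probe sets of the array, or the 5449 genes that remained after 1 probe set was kept per gene. They were CYT1 (YOR065W) and RIP1 (YEL024W), which carry redox centres, COR1 (YBL045C) and QCR2 (YPR191W), the large core proteins on the matrix side, and the small subunits QCR6 (YFR033C), QCR7 (YDR529C), QCR8 (YJL166W), QCR9 (YGR183C) and QCR10 (YHR001W-A). None of them overlaps another gene in the reference annotation. The mitochondrial gene of cytochrome b was not analysed here.

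All samples were of Saccharomyces cerevisiae CEN.PK113-1A, a haploid strain of mating type alpha, from glucose-limited chemostats whose inlet gas held 0%, 0.5%, 1%, 2.8% or 20.9% oxygen by label. In such a culture the feed rate fixes the growth rate, so that oxygen can be varied while cells divide at one pace. Every culture, with or without oxygen, received ergosterol and a detergent that supplies unsaturated fatty acids, since cells without oxygen make neither of these lipids. There were 6 arrays at 1% oxygen and 4 at each of the other levels, 22 in all; replicate 1 at 1% was not used here. According to the methods, some samples came from the same chemostat, and the labels do not say which. There were 2 cultivations each at 0.5% and 2.8% oxygen and 4 at each other level, and at 1% several samples came from 1 of them. The p-values therefore measure the spread between samples, part of which is a spread within 1 chemostat. For comparisons with the intermediate levels they may be too small, and the confidence intervals too narrow. For replicates 2 and 4 at 2.8% oxygen, and for no other sample, direct centrifugation of the cells is noted.

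Values are log2 signals of probe sets after Robust Multichip Average normalisation by the authors, given as mean ± SD over the arrays of a level. The signal of a probe set depends on its probes, so levels were compared between arrays and not between genes. Differences were tested with limma in 1 model of the 5 levels, adjusted by Benjamini-Hochberg over the 5449 genes and called at an adjusted p under 0.01. "Intermediate" is the average of the 3 levels 0.5, 1 and 2.8% oxygen, each level counting equally. Comparisons that have a level in common share its arrays, so they are not independent tests. Array medians lay between 9.04 and 9.10. The label of 0% oxygen was checked on 4 genes of anaerobic cells (DAN1, TIR1, ANB1 and HEM13). Of these, 4 of 4 were called lower at intermediate and at 20.9% than at 0% oxygen. DAN1, a cell wall gene, had a mean of 13.34 at 0% and of 4.28 to 4.92 at the other levels. The check bears on the label of 0% and not on the labels of the levels with oxygen. Between intermediate and 20.9% oxygen the 4 genes did not go one way. HEM13 was called higher at intermediate oxygen (1.02, adjusted p = 7e-11) and DAN1 lower (-0.58, adjusted p = 0.0098), and TIR1 and ANB1 were not called. Mating type could not be checked in the same way, since every sample is of 1 strain and signals of different genes were not compared. The 4 alpha markers had level means from 6.66 to 14.12 and the 5 markers of a cells from 4.95 to 8.46, and MF(ALPHA)2 (6.66) and SAG1 (8.33) at 0% oxygen lay within the second range. All 4 alpha markers peaked at intermediate oxygen, against 5.29% of all genes, and none of the a markers did. Genes deviated most from their level means on replicate 4 at 20.9% (SD over all genes 0.34) and replicate 4 at 2.8% (0.32), against 0.08 to 0.22 on the other arrays.

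All 9 subunit genes had higher transcript levels at intermediate oxygen than at either end. The rise above 0% was called for 9 of 9 genes, against 15.8% of all genes called higher in that comparison, with a median log2 difference of 0.95 (range 0.39 to 1.36; median of all genes -0.04). The rise above 20.9% was smaller, at a median of 0.39 (range 0.29 to 0.69; median of all genes 0.04), and was also called for 9 of 9 genes, against 26.1% of all genes. Both calls together, a peak at intermediate oxygen, were made for 9 of 9 members and for 5.29% of all genes. In the moderated F test over the 5 levels 9 of 9 members passed, against 60% of all genes, with adjusted p from 6.4e-13 for QCR2 to 5.7e-05 for QCR8. Averaged over the 9 genes, the log2 signal was 11.54 ± 0.08 at 0% (SD, n = 4), 12.45 ± 0.04 at 0.5% (n = 4), 12.54 ± 0.03 at 1% (n = 6), 12.46 ± 0.06 at 2.8% (n = 4) and 12.02 ± 0.14 at 20.9% oxygen (n = 4). In these array means the 0% arrays, the 20.9% arrays and the intermediate arrays did not overlap. For single genes, all 4 arrays at 0% lay below all 14 arrays at intermediate oxygen for 9 of 9 members. All 4 arrays at 20.9% did so for 5 of 9. The shares of all genes with arrays so separated are not given here, so these counts of members have no background.

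Bright genes as a whole were also higher at intermediate than at full oxygen. Of the 409 genes with a mean log2 signal of at least 11.88, which include 8 of the members, 47.7% were called higher at intermediate oxygen than at 20.9%, with a median log2 difference of 0.20, and 13.4% peaked. Against 0% oxygen 25.4% of them were called higher, with a median of -0.06. Cyclic loess, a normalisation that removes such brightness-dependent shifts, lowered the median of the members above 20.9% to 0.26 and left 7 of 9 called, and so 7 of 9 peaks. QCR6 (log2 difference 0.13, adjusted p = 0.069) and QCR7 (0.13, adjusted p = 0.033) lost the call. Against 0% oxygen 9 of 9 remained called. The shares of all genes called with cyclic loess are not given here.

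**Figure D1:**
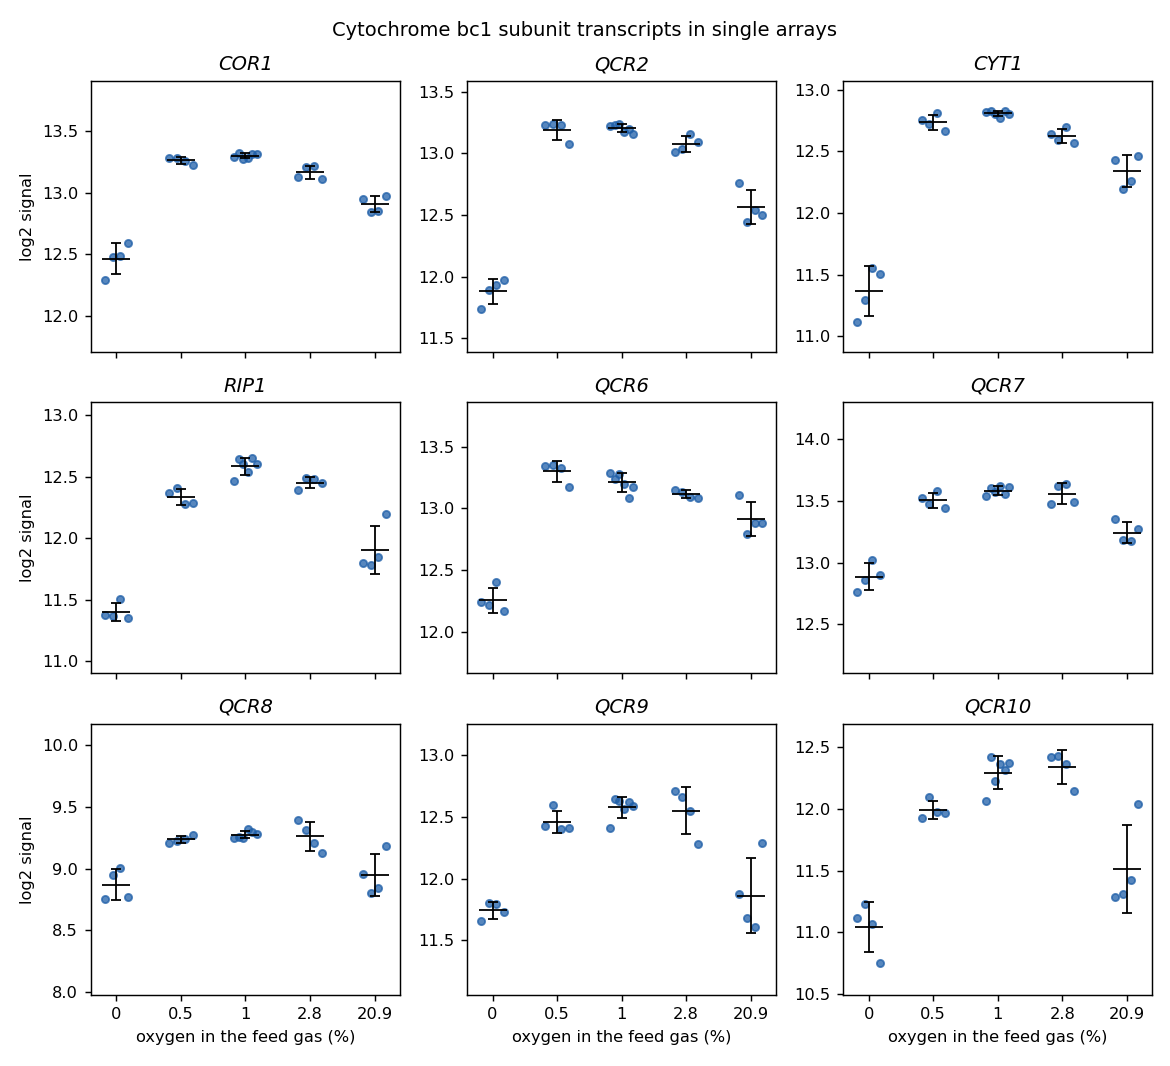
Log2 signal of each of the 9 subunit genes (vertical axes, each spanning the same number of log2 units) in single arrays at 5 oxygen levels (horizontal axis, evenly spaced, in % oxygen of the inlet gas). Points are arrays, and bars are the mean ± SD. In every panel the lowest mean is at 0% oxygen and the second lowest at 20.9%.

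CYT1 encodes cytochrome c1, the haem-carrying subunit that hands electrons to cytochrome c. Its log2 signals were 11.11, 11.29, 11.55 and 11.51 at 0% oxygen (replicates 1 to 4), 12.75, 12.72, 12.81 and 12.66 at 0.5%, and 12.64, 12.59, 12.70 and 12.56 at 2.8%. At 1% the lowest of 6 arrays was 12.77, the median 12.81 and the highest 12.83, and at 20.9% the arrays gave 12.43, 12.20, 12.26 and 12.46. The 0%, 20.9% and intermediate arrays formed separate ranges, with the 20.9% arrays much nearer to the intermediate ones. CYT1 had the largest rise of the 9 genes from 0% to intermediate oxygen, 2.56-fold (log2 difference 1.36, 95% confidence interval 1.22 to 1.49, adjusted p = 2e-13). It also had the largest difference between 20.9 and 0%, 1.96-fold (log2 difference 0.97, 95% confidence interval 0.80 to 1.14, adjusted p = 1.8e-09). Above 20.9% the intermediate mean was higher by only 0.39 (adjusted p = 3.7e-05).

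RIP1 encodes the Rieske protein, which holds the iron-sulphur cluster and joins the complex late in its assembly. Its signals were 11.37, 11.36, 11.51 and 11.35 at 0%, 12.36, 12.41, 12.27 and 12.28 at 0.5%, and 12.39, 12.49, 12.48 and 12.45 at 2.8% oxygen. At 1% they ran from 12.47 to 12.65 with a median of 12.60, and at 20.9% they were 11.80, 11.78, 11.85 and 12.20. Replicate 4 at 20.9% thus stood well above the other 3, though still below every intermediate array. RIP1 was 2.08-fold higher at intermediate than at 0% oxygen (log2 difference 1.06, 95% confidence interval 0.93 to 1.18, adjusted p = 6e-12). It was 1.46-fold higher than at 20.9% (log2 difference 0.55, adjusted p = 2.3e-07). The rise from 0 to 20.9% was 0.51 (adjusted p = 8.5e-06).

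COR1 and QCR2 encode the core proteins, relatives of the mitochondrial processing peptidase that in yeast have a structural role. QCR2 changed more than COR1 in these data. Its signals were 11.74, 11.89, 11.93 and 11.97 at 0%, 13.23, 13.24, 13.23 and 13.07 at 0.5%, 13.01, 13.03, 13.16 and 13.09 at 2.8%, and 12.76, 12.44, 12.54 and 12.50 at 20.9% oxygen. At 1% they ran from 13.16 to 13.24 with a median of 13.21. The 3 sets of arrays (0%, 20.9% and intermediate) did not overlap. QCR2 was 2.42-fold higher at intermediate than at 0% oxygen (log2 difference 1.28, 95% confidence interval 1.16 to 1.39, adjusted p = 3.6e-14) and 1.51-fold higher than at 20.9% (log2 difference 0.60, adjusted p = 1.9e-08). These were the lowest adjusted p-values among the members in the 2 comparisons.

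For COR1 the signals were 12.29, 12.48, 12.49 and 12.59 at 0%, 13.28, 13.28, 13.26 and 13.23 at 0.5%, 13.12, 13.21, 13.21 and 13.11 at 2.8%, and 12.95, 12.84, 12.85 and 12.97 at 20.9% oxygen. At 1% they ran only from 13.27 to 13.32, with a median of 13.30. Here too the 3 sets were separate. The log2 difference was 0.78 from 0% (95% confidence interval 0.68 to 0.88, adjusted p = 1.2e-11) and 0.34 from 20.9% (0.24 to 0.44, adjusted p = 4.4e-06), and 20.9% lay 0.44 above 0% (adjusted p = 1.7e-06).

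The 5 small subunits carry no redox centre, and their transcripts differed from each other in how far they fell at the ends of the oxygen range. QCR6 encodes the acidic subunit that lies next to cytochrome c1. Its signals were 12.24, 12.22, 12.40 and 12.17 at 0%, 13.34, 13.36, 13.33 and 13.18 at 0.5%, 13.15, 13.14, 13.09 and 13.09 at 2.8%, and 13.11, 12.79, 12.88 and 12.88 at 20.9% oxygen. At 1% they ran from 13.09 to 13.29 (median 13.22). QCR6 was the only member with its highest mean at 0.5% oxygen, and replicate 1 at 20.9% reached into the intermediate range. It was 1.94-fold higher at intermediate than at 0% oxygen (log2 difference 0.95, adjusted p = 9.4e-12). The difference from 20.9% was the smallest of the 9, at 0.29 (95% confidence interval 0.17 to 0.41, adjusted p = 0.00018).

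QCR7 and QCR8 encode small proteins that bind cytochrome b early in assembly. QCR7 had means of 12.89 ± 0.11 at 0%, 13.51 ± 0.06 at 0.5%, 13.59 ± 0.03 at 1%, 13.56 ± 0.09 at 2.8% and 13.24 ± 0.08 at 20.9% oxygen, and no array at 0% or 20.9% reached the intermediate range. It rose by 0.66 from 0% (adjusted p = 6.5e-10) and was 0.31 higher than at 20.9% (adjusted p = 3.3e-05). QCR8 had the smallest range of the 9. Its signals were 8.75, 8.95, 9.00 and 8.77 at 0%, 9.20, 9.23, 9.24 and 9.27 at 0.5%, 9.40, 9.32, 9.21 and 9.13 at 2.8%, and 8.95, 8.80, 8.85 and 9.18 at 20.9% oxygen, with 9.25 to 9.32 (median 9.27) at 1%. The arrays at 0 and 20.9% overlapped, and only replicate 4 at 20.9% reached the intermediate range. QCR8 was 1.31-fold higher at intermediate than at 0% oxygen (log2 difference 0.39, 95% confidence interval 0.26 to 0.52, adjusted p = 3.3e-05) and 1.24-fold higher than at 20.9% (log2 difference 0.31, 95% confidence interval 0.18 to 0.45, adjusted p = 0.00025). Its probe set was also the only one of the 9 of middling brightness, at the 51.6th percentile of all genes against the 92.5th to 99.0th for the others. Whether the probe set bears on the smaller range was not tested.

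QCR9 encodes a small membrane-spanning subunit. Its signals were 11.65, 11.80, 11.80 and 11.72 at 0%, 12.42, 12.59, 12.40 and 12.41 at 0.5%, 12.71, 12.66, 12.55 and 12.28 at 2.8%, and 11.88, 11.68, 11.61 and 12.28 at 20.9% oxygen, with 12.41 to 12.64 (median 12.61) at 1%. Replicate 4 was the lowest array at 2.8% and the highest at 20.9%, and these were the arrays on which genes deviated most from their level means. The intermediate mean was 0.78 above 0% (95% confidence interval 0.59 to 0.98, adjusted p = 4.1e-07) and 0.67 above 20.9% (0.48 to 0.86, adjusted p = 3.2e-06), so QCR9 had nearly the same distance from both ends.

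QCR10 encodes a further small subunit, which, like Rip1, is added late. Its signals were 11.11, 11.23, 11.07 and 10.75 at 0%, 11.92, 12.09, 11.98 and 11.97 at 0.5%, 12.42, 12.43, 12.37 and 12.14 at 2.8%, and 11.28, 11.31, 11.43 and 12.04 at 20.9% oxygen, with 12.07 to 12.42 (median 12.34) at 1%. QCR10 had the widest spread within levels, with an SD of 0.36 at 20.9%, where replicate 4 again stood above the other 3 and reached the 0.5% arrays. It was 2.25-fold higher at intermediate than at 0% oxygen (log2 difference 1.17, 95% confidence interval 0.95 to 1.39, adjusted p = 1.1e-08) and 1.62-fold higher than at 20.9% (log2 difference 0.69, adjusted p = 1.3e-05), the largest difference from 20.9% among the members. Without replicate 4 at 2.8% and at 20.9% oxygen, an alternative chosen after seeing the data, 9 of 9 members still peaked.

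**Figure D2:**
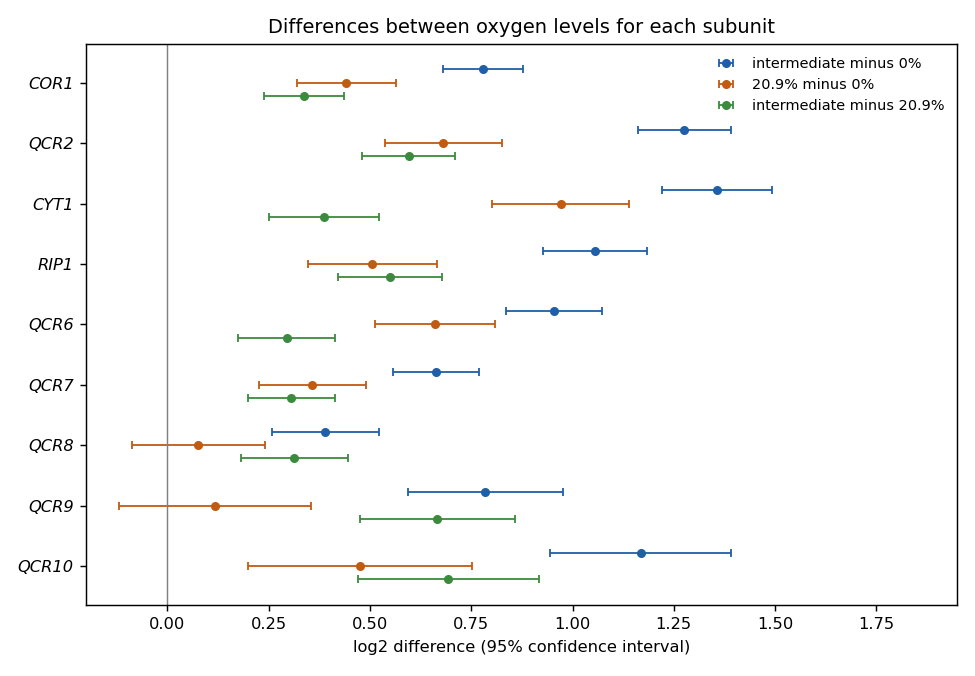
Log2 differences (horizontal axis) for each subunit gene (vertical axis) between intermediate and 0% oxygen (blue), 20.9 and 0% (orange) and intermediate and 20.9% (green). Points are limma estimates and bars 95% confidence intervals; the orange intervals of QCR8 and QCR9 cross 0, and no other interval does.

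Between full aeration and no oxygen the members had unequal differences. The comparison asks how far the transcripts differ between cells that respire fully and cells that cannot respire. Of 9 genes, 7 were called higher at 20.9 than at 0% oxygen, with a median log2 difference of 0.48 over the 9 (median of all genes -0.07), against 50.6% of all genes called in either direction. CYT1 (0.97), QCR2 (0.68) and QCR6 (0.66) had the largest differences, followed by RIP1 (0.51), QCR10 (0.48), COR1 (0.44) and QCR7 (0.36). QCR8 and QCR9 were not called. The log2 difference was 0.08 for QCR8 (95% confidence interval -0.09 to 0.24, adjusted p = 0.41) and 0.12 for QCR9 (-0.12 to 0.36, adjusted p = 0.38), so differences above 0.36 lay outside both intervals. The intervals of CYT1 (0.80 to 1.14), QCR2 (0.54 to 0.82) and QCR6 (0.51 to 0.81) lay wholly above both; the differences between genes were not tested. The call of QCR10 (adjusted p = 0.0041) was lost without replicate 4 at 0% (log2 difference 0.38, adjusted p = 0.022) and without replicate 4 at 20.9% (0.30, adjusted p = 0.016), and with array weights its difference was 0.25 (adjusted p = 0.046).

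Each intermediate level taken alone gave the same picture against 0% oxygen. The median log2 difference of the members was 0.93 at 0.5% oxygen, where 9 of 9 were called higher, against 26.9% of all genes called in either direction. The median was 0.96 at 1% (9 of 9, against 782 genes higher and 28.6% in either direction). At 2.8% it was 0.86 (9 of 9, against 696 genes higher and 25.7% in either direction). Most of the rise was thus present at the lowest supply of oxygen tested. Members called at 2-fold or more were QCR2, CYT1 and QCR6 at 0.5%, 3 of the 9, and 4 of the 9 at 1% and at 2.8%. The share of all genes called at 2-fold or more is not given here, so these counts have no background.

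Toward full aeration the transcripts were lower again. The median difference of 20.9% from 0.5% was -0.40, with 9 of 9 members called lower, against 35.2% of all genes called in either direction. From 1% the median was -0.47 (9 of 9, against 1267 genes lower and 42.7% in either direction). From 2.8% it was -0.32 (8 of 9, against 1195 genes lower and 40.5% in either direction). The exception was QCR6, with -0.20 between 2.8 and 20.9% (adjusted p = 0.022). These counts depend on the model more than those against 0% do. With cyclic loess 4, 7 and 5 of 9 were called, and when a fit held just the pair of levels in question 3, 9 and 3. The shares of all genes called in those fits are not given here. A general loss of calls therefore cannot be told from a loss among the members.

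Among the 3 intermediate levels no member was called. Between 0.5 and 1% oxygen limma called 0 of 9 members, against 0.165% of all genes, and 2 had an unadjusted p under 0.05. The median difference was 0.07 (range -0.09 to 0.31). Between 0.5 and 2.8% it called 0 of 9, against 5.67% of all genes, with 2 at an unadjusted p under 0.05 and a median of 0.03 (range -0.18 to 0.35). Between 1 and 2.8% it called 0 of 9, against 1.71%, with 2 at an unadjusted p under 0.05 and a median of -0.09 (range -0.18 to 0.04). The differences nearest to the threshold were those of RIP1, QCR10 and QCR6. RIP1 was 0.25 higher at 1 than at 0.5% (95% confidence interval 0.11 to 0.40, adjusted p = 0.11), with all arrays of one level apart from those of the other. QCR10 was 0.35 higher at 2.8 than at 0.5% (95% confidence interval 0.07 to 0.63, adjusted p = 0.083). QCR6 went the other way, at -0.18 from 0.5 to 2.8% (95% confidence interval -0.33 to -0.04, adjusted p = 0.089).

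Array weights count an array by how closely its genes follow the fit. With them, 4 members were called between 0.5 and 1% oxygen and 4 between 0.5 and 2.8%. The share of all genes called in that fit is not given here, so these counts have no background. RIP1 (0.24, adjusted p = 5.4e-05), QCR9 (0.16, adjusted p = 0.0065) and QCR10 (0.40, adjusted p = 1.7e-05) were then higher at 1 than at 0.5%, and QCR6 lower (-0.14, adjusted p = 0.008). QCR9 (0.23, adjusted p = 0.0019) and QCR10 (0.47, adjusted p = 1.2e-05) were higher at 2.8 than at 0.5%, and QCR2 (-0.17, adjusted p = 0.0043) and QCR6 (-0.20, adjusted p = 0.0027) lower. Replicate 1 at 0.5% oxygen had a weight of 7.32 in that fit, against 0.503 to 1.12 for the other arrays of its level. Without replicate 4 at 2.8% and at 20.9%, the rise of QCR10 from 0.5 to 2.8% was called as well (0.42, adjusted p = 0.0046).

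**Figure D3:**
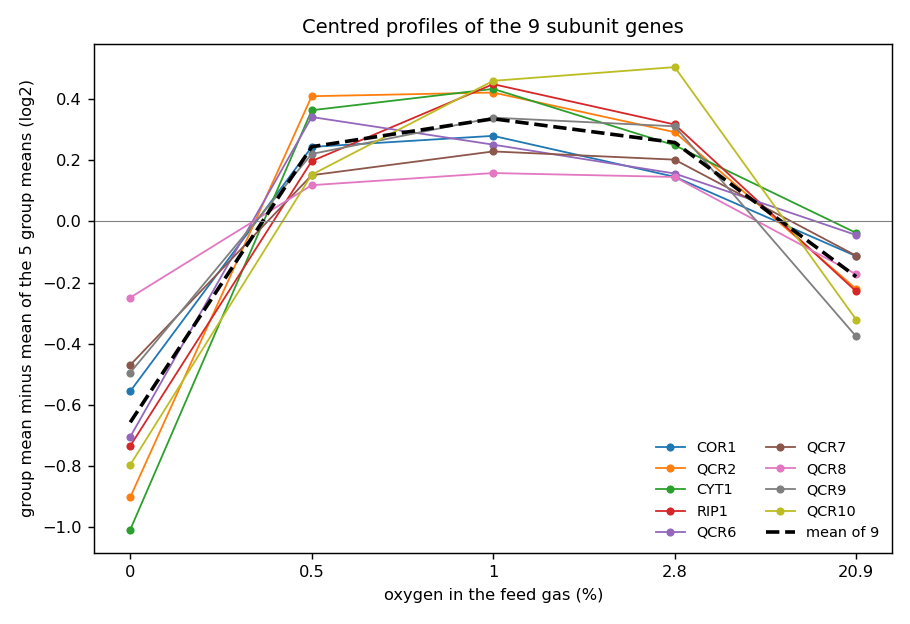
Group means of the 9 subunit genes, each minus its own mean over the 5 levels (vertical axis, log2), against oxygen in the inlet gas (horizontal axis, %, evenly spaced), with the mean of the 9 as a broken line. All lines are lowest at 0% oxygen; CYT1 starts lowest, QCR8 highest, QCR6 alone has its highest point at 0.5%, and QCR10 alone at 2.8%.

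Ordered by mean, 0% was the lowest level for 9 of 9 genes and 20.9% the second lowest for 9 of 9. The highest was 1% for 7 genes, 0.5% for QCR6 and 2.8% for QCR10. Neighbours at the low end differed beyond the threshold except for QCR8 and QCR9, whose 0 and 20.9% means were not called apart. The step from 20.9% to the next level up was called for 8 genes and not for QCR6. COR1, QCR2, CYT1 and QCR6 had lower means at 2.8 than at 0.5% oxygen, and RIP1, QCR7, QCR8, QCR9 and QCR10 higher ones, but no step among the intermediate levels was called for any of them.

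The likeness of profiles was measured as the root mean square difference of the 5 centred group means. From the mean profile of the other 8, RIP1 (0.08) and COR1 (0.09) differed least, QCR6 by 0.11, QCR7 and QCR9 by 0.13, QCR2 by 0.16 and QCR10 by 0.18, and CYT1 (0.21) and QCR8 (0.24) most. The latter pair differed in amplitude in opposite directions, as the plot of centred profiles shows. Of genes outside the complex, the 10 with profiles most like the mean of the 9 included SDH1 (0.041) and SDH2 (0.056), of succinate dehydrogenase, COX7 (0.043), of cytochrome oxidase, and KGD2 (0.046), of the 2-oxoglutarate dehydrogenase complex. CBP4 (0.043), an assembly factor of the bc1 complex, was among them too. The others were MSB2 (0.043), a sensor of osmotic stress and filamentous growth, PDR16 (0.049), a phosphatidylinositol transfer protein, MNE1 (0.053), a mitochondrial protein of intron splicing, AXL1 (0.059), a protease that matures a-factor, and LEU9 (0.070), of leucine synthesis. All genes were measured on the same arrays, and the median over all other genes was 0.43. No member was as near to the mean of the 9 as the nearest of these genes.

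Electrons reach the bc1 complex from the NADH dehydrogenases and succinate dehydrogenase and leave it through cytochrome c and cytochrome oxidase. All 4 genes of succinate dehydrogenase (complex II) peaked as the members did, with medians of 0.85 above 0% and 0.45 above 20.9% oxygen. Of all genes 5.29% peaked, and of the 409 bright genes 13.4%. SDH3 (0.67 and 0.30) had the smallest differences of the 4, and SDH4 (0.87 and 0.75) the largest from 20.9%. Of the NADH dehydrogenases, NDI1, on the matrix side, peaked (1.75 and 0.79), NDE1, on the outer face, rose from 0% (2.37) without a called difference from 20.9% (0.10, adjusted p = 0.16), and NDE2 was far lower at intermediate than at full oxygen (-2.87, adjusted p = 5.7e-10). CYC1, the main cytochrome c and the electron acceptor of the complex, peaked with larger differences than any member, 2.20 above 0% (adjusted p = 2.2e-15) and 0.98 above 20.9% (adjusted p = 3e-09). CYC7, the other form, had differences of -0.60 (adjusted p = 0.037) and 0.31 (adjusted p = 0.25).

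Of 9 cytochrome oxidase genes 8 peaked, against 5.29% of all genes, with medians of 0.99 and 0.80 over the 9. COX12 rose most from 0% (1.30), and COX7 had the smallest difference from 20.9% (0.43). The exception was COX5B, the subunit form used at low oxygen, which was 1.04 above 20.9% but fell by 1.87 from 0% to intermediate oxygen (adjusted p = 2.1e-12). Of 14 ATP synthase genes 12 peaked (medians 0.47 and 0.49), against the same 5.29%. ATP20 had the largest differences of these from both ends (1.18 and 1.04), ATP17 the smallest from 0% (0.24, adjusted p = 0.14) and ATP1 the smallest from 20.9% (0.27, adjusted p = 0.00016). The 3 complexes had different balances between the ends of the range. The median difference of 20.9 from 0% was 0.48 for the bc1 genes, with 7 of 9 called higher, 0.16 for cytochrome oxidase, with 3 of 9 higher and 1 (COX5B) lower, and 0.07 for ATP synthase, with 0 of 14 higher and 2 (ATP5 and ATP18) lower. Differences between the lists were not tested.

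**Figure D4:**
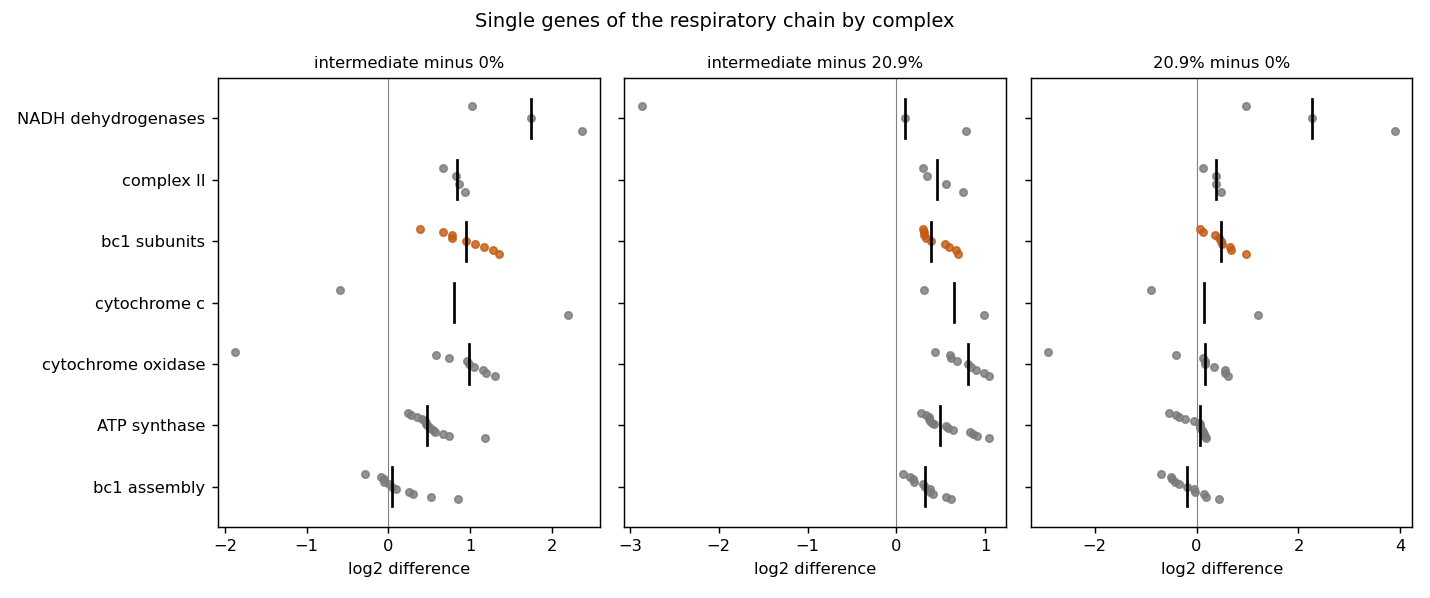
Log2 differences of single genes (points) by respiratory complex and for the bc1 assembly factors (vertical axis), in 3 comparisons of oxygen levels (horizontal axes, log2), with the median of each list as a black bar. The 9 bc1 subunit genes (orange) lie above 0 in all 3 comparisons, and the assembly factors are centred near 0 against 0% oxygen (median 0.05).

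Genes whose products help to build the complex had mixed calls. Of 12 listed assembly and expression factors 11 were measured (BCA1 was not analysed here), and 3 of these peaked, against 5.29% of all genes: CBP4 (0.85 above 0% and 0.42 above 20.9%) and CBP6 (0.53 and 0.38), which act in the making and assembly of cytochrome b, and CBS2 (0.30 and 0.32), a translation activator of its messenger. Against 0% oxygen 4 were called higher and 1, CBP1, which stabilises that messenger, was lower (-0.29, adjusted p = 0.0049), with a median of 0.05; of all genes 15.8% were called higher. Against 20.9% 8 of the 11 were called higher at intermediate oxygen, against 26.1% of all genes, with a median of 0.32. CBP3 had the largest of these differences (0.61, adjusted p = 2.4e-08) and CBS1 the smallest of the 11 (0.07, adjusted p = 0.38). Between 20.9 and 0% 1 was called higher and 5 lower, CBP3 by the most (-0.70, adjusted p = 4.2e-08). MZM1, which helps to insert Rip1, followed CBP3 (-0.51, adjusted p = 0.0001), and BCS1, which translocates Rip1 across the inner membrane, had 0.10 above 0% (adjusted p = 0.27) and 0.15 above 20.9% (adjusted p = 0.081). CYT2, the lyase that attaches haem to cytochrome c1, was 0.37 above 20.9% (adjusted p = 0.00015) and -0.06 from 0% (adjusted p = 0.55), while CYT1 itself rose by 1.36.

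RCF2, which associates with supercomplexes of bc1 and cytochrome oxidase, peaked (0.77 and 0.65), and its relative RCF1 rose from 0% (0.61, adjusted p = 0.00026) with 0.27 above 20.9% (adjusted p = 0.059). OCT1, the intermediate peptidase, peaked (0.64 and 0.53). The 2 subunits of the general processing peptidase differed: MAS1 was called higher against 0% only (0.31), and MAS2 against 20.9% only (0.78).

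Nuclear genes of the yeast respiratory chain are activated by the Hap2/3/4/5 complex, of which Hap4 is the activating and regulated subunit, and by Hap1, which responds to haem. HAP4 peaked, with means of 11.50 at 0%, 12.16, 12.27 and 11.96 at 0.5, 1 and 2.8%, and 11.52 at 20.9% oxygen. Its log2 differences were 0.63 above 0% (adjusted p = 4.1e-06), 0.61 above 20.9% (adjusted p = 4.7e-06) and 0.02 between 20.9 and 0% (adjusted p = 0.89). The ends were thus nearly equal for HAP4, whereas 7 of the 9 subunit genes were higher at 20.9%. HAP3 peaked as well (0.34 and 0.69). HAP2 was 0.21 above 0% (adjusted p = 0.0073), and HAP5 had differences of -0.09 (adjusted p = 0.30) and 0.00 (adjusted p = 0.96). HAP1 had the opposite profile, with a difference of intermediate from 0% oxygen of -1.04 (adjusted p = 1.8e-08) and from 20.9% of -0.57 (adjusted p = 5.2e-05). ROX1, a repressor of anaerobic genes, rose by 0.75 from 0% (adjusted p = 0.00012) and had -0.14 from 20.9% (adjusted p = 0.37). These are transcript levels and do not measure the activity of the regulators. A link between any regulator and the 9 subunit genes was not tested.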

How the data were processed

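Total RNA was hybridised to GeneChip Yeast Genome 2.0 arrays, 1 per sample. The deposited table holds log2 intensities of 5716 probe sets in 22 arrays, made by the authors with Robust Multichip Average (RMA): background correction, quantile normalisation across arrays and summary by probe set. No further normalisation was applied. Quantile normalisation gives all arrays nearly the same distribution, so a change in total messenger RNA cannot be seen. Probe sets were named through the GEO platform annotation and the S. cerevisiae reference (assembly R64); 5498 name 1 gene, 218 none, and the 5449 genes were each represented by 1 probe set (one specific to the gene first, then the brightest). No filter on dim genes was applied.

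A single linear model, in which the groups were the 5 oxygen levels, was fitted with limma 3.58.1 in R 4.3.3 (eBayes), after the methods of the study, with Benjamini-Hochberg adjustment over all genes and a threshold of 0.01. A gene peaked where both intermediate contrasts were called and positive. The script was tested on simulated data. The number of arrays, and of cultivations, limits the precision. Figures were drawn with Matplotlib 3.10.9 in Python 3.11.15. The genes and lists were chosen with earlier results of these data known. Genes were named by a rule: the 9 subunit genes, the 10 genes most like them, the genes of lists of up to 6, and from larger lists the extremes and any gene called against most of its list. The markers of cell type are given mainly as lists, not all by name. MZM1, CYT2, BCS1, CBP6, CBS2, ATP5 and ATP18 were added after their values were seen where they fall outside this rule.

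Alternatives were the replicate number as a block, all probe sets, means of probe sets, no dimmest 25% of genes, arrays centred on their medians, cyclic loess, eBayes with trend and robust estimation, array weights, only the levels compared, each array left out, the 2 directly centrifuged samples left out, and 2 samples at 0.5% and at 2.8% in all 36 choices. Samples with the same replicate number did not deviate together: the correlation of their deviations had a median of 0.05 over 36 pairs (range -0.59 to 0.58), so the numbers were not taken as pairs. Promoter and protein sequences were not analysed here.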

Additional observations from a re-analysis of the deposited data

Results flagged for a closer look

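In 6 of 45 groups (9 genes at 5 levels) 1 array stood apart from the others of its level by Dixon's test. Chance alone marks about 1 group in 20. The 9 genes share the same arrays, so the groups are not independent and the count cannot show an excess. The share over all genes was not counted. At 0.5% oxygen replicate 4 was low for QCR2, at 13.07 against 13.23 to 13.24, and for QCR6, at 13.18 against 13.33 to 13.36. At the same level replicate 2 was high for QCR9, at 12.59 against 12.40 to 12.42. At 1% oxygen replicate 2 was low for QCR9, at 12.41 against 12.57 to 12.64. At 0% oxygen replicate 3 was high for RIP1, at 11.51 against 11.35 to 11.37. On this array 9 of 9 members lay above their level means, and the share of all genes that did so is not given here. At 20.9% oxygen replicate 4 was high for RIP1, at 12.20 against 11.78 to 11.85.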

How the results depend on the processing

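Over 34 alternative settings no result for a member or for the 9 together changed sign past the threshold. The F test and the rise above 0% oxygen were called for 9 of 9 in each setting in which they were run, and the rise above 20.9% and the peak for 9 of 9 in all but cyclic loess (7 of 9). Cyclic loess gave medians of 0.26 for intermediate minus 20.9%, 0.65 for 20.9 minus 0%, -0.25 for 20.9 minus 0.5% and -0.31 for 20.9 minus 1%, with 4 members called between 20.9 and 0.5% and 5 between 20.9 and 2.8%. Array weights gave medians of 0.84 for 0.5 minus 0% and -0.47 for 20.9 minus 2.8%, and called 4 members for 1 minus 0.5% and 4 for 2.8 minus 0.5%. With only the levels compared, 3 members were called between 20.9 and 0.5% and 3 between 20.9 and 2.8%; with 2 samples each at 0.5 and 2.8%, a median of 5 of 9 over the 36 choices was called between 20.9 and 2.8%. Without both replicates 4 at 2.8 and 20.9%, chosen after seeing the data, the median of 20.9 minus 2.8% was -0.44 and 1 member was called for 2.8 minus 0.5%. The shares of all genes called in these settings are not given here, so the counts of members have no background. The causes of these shifts were not tested.

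With the replicate numbers as a block the median of 1 minus 0% was 1.03. The members called were then 8 for 1 minus 0%, 6 for 20.9 minus 0%, 7 for 20.9 minus 0.5%, 8 for 20.9 minus 1% and 6 for 20.9 minus 2.8%; the other counts were as without it. Only 4 of 22 arrays correlated best with an array of their own number.

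Leaving out 1 array at a time gave medians of 0.85 to 0.96 for 0.5 minus 0% and -0.40 to -0.29 for 20.9 minus 2.8%, the extremes that moved most being those without replicate 4 at 0% and without replicate 4 at 20.9%. Members called ranged from 6 to 7 for 20.9 minus 0%, 7 to 9 for 20.9 minus 0.5% and 6 to 9 for 20.9 minus 2.8%. Limits: the number of independent cultivations per level is below the number of arrays at 0.5, 1 and 2.8%, each gene rests on 1 probe set, and transcripts say nothing of the amount of assembled complex.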
